A study of Mus musculus with 4 samples.

Results

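Mitosis and spindle genes are the 50 genes of a list that covers entry into mitosis, the spindle and its checkpoint, anaphase, cytokinesis and chromosome condensation. They were chosen by name and not by a rule on their values, but earlier results of these data were known when the list was made. Of the 50 genes, 43 had a row in the expression tables and 42 reached at least 1 FPKM (the number of fragments scaled to exon length and to the mapped reads of the library) in a library, out of 9779 genes with a usable value. *Bub1*, *Ccna2*, *Kif4*, *Aurkb*, *Ndc80*, *Ncapd2* and *Ncapg* had no row and are not analysed here. *Kif20b*, a mitotic kinesin, was listed at 0 in 3 libraries and at 0.00141 FPKM in the AA+DMSO library, and it stayed out of the ratios. The 42 genes below are therefore those that passed a minimum of 1 FPKM, not the whole list.

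RNA-Seq was carried out on LF2 embryonic stem cells (ESCs), a female mouse line of the 129/J strain, in 4 conditions with 1 library each. PBS+DMSO cells received both vehicles, PBS+GSK-J4 cells received 10 μM GSK-J4, AA+DMSO cells received 50 μg/ml L-ascorbic acid (AA) and AA+GSK-J4 cells received both agents. GSK-J4 enters cells and blocks Utx and Jmjd3, the demethylases of H3K27. The paper also reports raised H3K4me3 at *Xist*, *Nodal* and *HoxC13* after GSK-J4, and it concludes that H3K4 demethylation is inhibited as well. AA is vitamin C, which keeps the iron of such demethylases in its active state. All treatments lasted 24 hr, all cells had been moved off their fibroblast feeders before treatment, and a single line was used. With 1 library per condition no difference has a replicate check, so no test was made and no p-value is given. The question put to these genes was how their RNA levels stood after GSK-J4, and whether that depended on AA.

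Cells enter mitosis when the kinase Cdk1, bound to a B-type cyclin, becomes active, and they leave it when the anaphase-promoting complex (APC/C) marks the cyclins and securin for destruction. In between, the chromosomes condense, kinetochores attach them to spindle microtubules, and the spindle checkpoint holds anaphase back until attachment is complete. RNAs for these proteins accumulate together late in the cell cycle, and ESCs, which have short G1 phases and divide rapidly, express them at high levels. In bulk RNA, fewer cells in late cell cycle phases and less of these RNAs per cell cannot be told apart, and no cell cycle phase was measured here.

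The cells carried the markers of their label. All 12 pluripotent cell markers examined had a value, and they summed to 2342, 1472, 2129 and 1334 FPKM in PBS+DMSO, PBS+GSK-J4, AA+DMSO and AA+GSK-J4. These markers were lower with GSK-J4 too, in 12 of 12 cases without AA and 11 of 12 with AA. Of all genes 63.0% and 62.2% were lower, and of those with a mean of at least 20 FPKM 85.3% and 84.5% were. The median log2 ratio (GSK-J4 over DMSO, 1 FPKM added to each) of the markers was −0.64 in both comparisons, close to the medians of −0.77 and −0.66 of the mitosis and spindle genes. Of 12 feeder fibroblast markers, *Col1a1*, *Col1a2*, *Thy1* and *Lox* had a value, and these 4 summed to 10.6, 14.0, 9.93 and 12.9 FPKM in the same order, while the other 8 had no value. The feeder sum was thus slightly higher in both GSK-J4 libraries, and the part of either marker list in the results was not tested. No read counts were given, and the depth behind each value is unknown. The values come in 2 separate tables, 1 without and 1 with AA, so that GSK-J4 is compared within a table and AA across tables, and whether the scaling differed between them is not known.

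Mitosis and spindle genes were lower with GSK-J4 as a group. In PBS+DMSO the 42 genes had a median level of 43.3 FPKM, and PBS+GSK-J4 gave 25.9 FPKM. AA+DMSO gave 38.6 FPKM, and AA+GSK-J4 gave 24.6 FPKM. Together they made up 0.666% of the FPKM of all genes with both vehicles and 0.510% with GSK-J4, and the libraries with AA had 0.639% and 0.501%. The group thus took a smaller share of the measured RNA in both GSK-J4 libraries, besides its lower values.

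**Figure D1:**
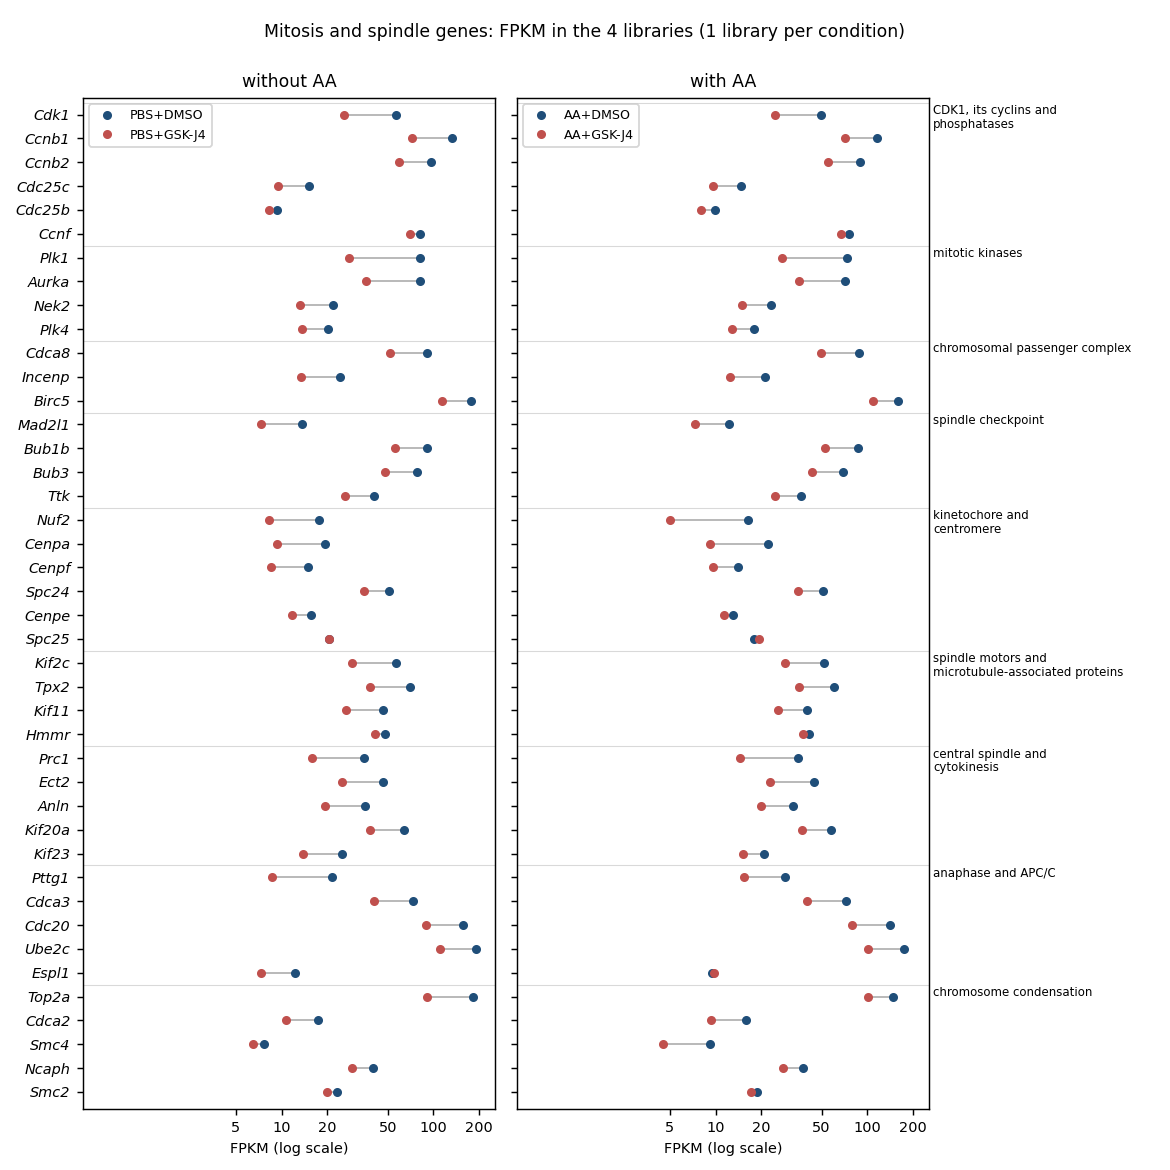
FPKM of the 42 mitosis and spindle genes on a log axis, without AA (left) and with AA (right), grouped by role; each point is 1 library, DMSO in blue and GSK-J4 in red. In most rows the red point lies left of the blue one, while the points of *Spc25* nearly coincide without AA and those of *Espl1* nearly coincide with AA.

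Ratios were taken as log2 of GSK-J4 over DMSO after adding 1 FPKM to each value. Without AA the median log2 ratio of the 42 genes was −0.77, with a middle spread from −0.86 to −0.61, against −0.17 for all 9196 genes with at least 1 FPKM in either library. On the linear scale this median is 41.5% below DMSO. With AA the median was −0.66, or 36.9% below DMSO, with a middle spread from −0.83 to −0.51, against −0.16 for 9139 genes. Lower values were seen for 41 of the 42 genes without AA, where 63.0% of all genes were lower, and for 40 with AA, where 62.2% were.

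Few of the genes changed by 2-fold. A fall of at least 2-fold was found for 6 of the 42 genes (14.3%) without AA, against 3.50% of all genes, and for 4 (9.52%) with AA, against 3.38%. None of them rose 2-fold, as 4.96% of all genes did without AA and 4.13% with AA. At 1.5-fold the counts were 32 genes (76.2%) without AA, against 19.3% of all genes, and 26 genes (61.9%) with AA, against 17.8%. The pattern was one of many moderate reductions, with *Plk1* the lowest without AA, at a log2 ratio of −1.53, and *Nuf2* the lowest with AA, at −1.54.

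Highly expressed genes as a whole were lower in the GSK-J4 libraries, so the comparison was repeated among genes with a mean of at least 20 FPKM over the 4 libraries, a choice made after the data were seen. At that level the 2673 genes had a median of −0.47 in the absence of AA and −0.42 in its presence, and among the 25 mitosis and spindle genes it was −0.81 and −0.70. All 25 were lower in both comparisons, where 85.3% and 84.5% of the genes at that level were lower. A 1.5-fold reduction was found for 21 of the 25 (84.0%) without AA, against 37.8%, and for 18 (72.0%) with AA, against 32.8%. A 2-fold fall was found for 5 of the 25 without AA, against 6.29%, and for 2 with AA, against 4.56%. The distance between the group and all genes was therefore smaller among genes of like level.

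**Figure D2:**
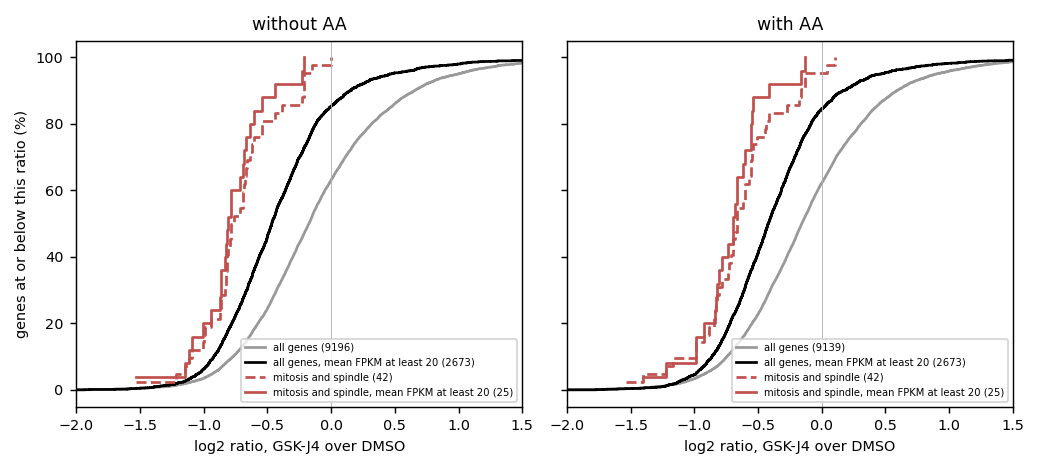
Share of genes (%) at or below each log2 ratio of GSK-J4 over DMSO, without AA (left) and with AA (right), for all genes (grey), all genes with a mean of at least 20 FPKM (black), the 42 mitosis and spindle genes (dashed red) and the 25 of them with a mean of at least 20 FPKM (solid red). Both red lines lie left of the black line, and the medians without AA are −0.81 for the 25 genes and −0.47 for the 2673 genes.

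How much lower the values were depends on the scaling of the libraries. With all libraries brought to an equal FPKM total, the median of the 42 genes was −0.40 without AA and −0.35 with AA, while that of all genes moved to 0.17 and 0.15. The split of the group was then 36 lower and 6 higher without AA, and 35 and 7 with AA. Scaled by the upper quartile, 36 were lower and 6 higher in each comparison, where the median of all genes was 0.08 in each. The distance from the median of all genes stayed at −0.58 and −0.50 under the upper quartile and at −0.58 and −0.49 under equal totals, compared with −0.60 and −0.51 as deposited.

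CDK1, its cyclins and phosphatases start mitosis. Of 7 listed genes 6 had a value, and the median of their log2 ratios was −0.66 in the absence of AA and −0.63 in its presence. *Cdk1* (mm10, chr10:69335093-69352965), the kinase itself, had 56.4 FPKM with DMSO and 25.5 with GSK-J4 when AA was absent, and 49.6 and 24.5 FPKM when it was present. It was lower in both GSK-J4 libraries than in either DMSO library. With 1 FPKM added the falls were 2.16-fold without AA and 1.98-fold with AA, past the 2-fold mark only without AA. With 0.1 FPKM added the log2 ratio of *Cdk1* with AA was −1.01, past that mark too. *Ccnb1*, the cyclin B1 partner of Cdk1, stood at 132 and 72.3 FPKM without AA and at 117 and 71.6 FPKM with AA, which is a log2 ratio of −0.86 and −0.70. *Ccnf*, a cyclin-like subunit of an SCF ubiquitin ligase, was nearly level, with 82.0 and 70.0 FPKM without AA and 75.9 and 67.5 FPKM with AA. The Cdk1 kinase and its cyclins were thus lower by different amounts, and *Cdc25b*, a phosphatase that activates Cdk1, was near level as well, at a log2 ratio of −0.15 and −0.27. *Cdc25b* is the sum of 2 coding sequence groups that went opposite ways without AA, 1 at 3.51 and 1.84 FPKM and the other at 5.76 and 6.42 FPKM, while with AA both were lower with GSK-J4, at 3.18 and 2.49 FPKM and at 6.70 and 5.502 FPKM.

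The 4 mitotic kinases had the lowest median of the 9 roles without AA, −0.92, and −0.79 with AA. *Plk1* (mm10, chr7:122159425-122169910), which drives centrosome maturation, spindle assembly and the exit from mitosis, had 81.7 FPKM with DMSO and 27.7 with GSK-J4 when AA was absent, and 73.5 and 27.2 FPKM when it was present. It fell 2.88-fold without AA and 2.64-fold with AA, and both GSK-J4 libraries lay close together. *Aurka*, the Aurora A kinase of the spindle poles, stood at 81.2, 36.2, 71.4 and 35.6 FPKM in PBS+DMSO, PBS+GSK-J4, AA+DMSO and AA+GSK-J4, the order kept below. With 1 FPKM added *Aurka* was 2.21-fold and 1.98-fold lower, and with 0.1 FPKM added its log2 ratio with AA was −1.003. Its value is the sum of 2 groups of transcripts that share a coding sequence, and both were lower, the larger from 74.9 to 33.2 FPKM and the smaller from 6.33 to 3.03 FPKM without AA. *Plk4*, the kinase that starts centriole duplication, had the smallest reduction of this role, at 20.1, 13.5, 17.9 and 12.9 FPKM. The centriole kinase thus lay closer to the other genes, at a log2 ratio of −0.54 and −0.44, than Plk1 and Aurora A did.

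The chromosomal passenger complex corrects faulty attachments and is moved to the midzone for cytokinesis. Its 3 measured subunits of 4 listed were lower, with a median log2 ratio of −0.81 without AA and −0.73 with AA. *Cdca8*, which encodes borealin, stood at 91.1, 51.5, 87.5 and 49.6 FPKM. *Birc5*, which encodes survivin, stood at 176, 113, 159 and 108 FPKM, and it was the highest gene of the list in both GSK-J4 libraries. The 3 subunits differed little from each other, with log2 ratios without AA from −0.82 to −0.63.

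The spindle checkpoint genes were lower by like amounts. Of 5 listed genes 4 had a value, with a median log2 ratio of −0.68 without AA and −0.66 with AA. *Mad2l1*, which encodes the Mad2 protein that binds Cdc20 and blocks the APC/C, stood at 13.7, 7.27, 12.2 and 7.36 FPKM. *Ttk*, the Mps1 kinase at the top of the checkpoint, stood at 40.4, 26.2, 36.7 and 24.6 FPKM. The log2 ratios of the 4 measured genes lay from −0.83 to −0.60 in the absence of AA and from −0.70 to −0.56 in its presence, a narrow range in both comparisons.

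The kinetochore and centromere genes were the most uneven role. Of 7 listed genes 6 had a value, with medians of −0.65 and −0.52, but they ranged from −0.997 to 0.00 in the absence of AA and from −1.54 to 0.10 in its presence. *Nuf2* (mm10, chr1:169498023-169531470), a subunit of the NDC80 complex that grips microtubules, stood at 17.5, 8.29, 16.4 and 4.998 FPKM. With 1 FPKM added it lay just short of a 2-fold fall without AA, at a log2 ratio of −0.997, and fell 2.90-fold with AA. With 0.1 FPKM added its log2 ratio without AA was −1.07. *Cenpa*, the histone H3 variant that marks the centromere, stood at 19.4 and 9.30 FPKM without AA and near 22 and at 9.25 FPKM with AA. With 1 FPKM added this is 1.98-fold lower without AA and 2.24-fold lower with AA. With 0.1 FPKM added the log2 ratio of *Cenpa* without AA was −1.05. *Spc25* (mm10, chr2:69190929-69206213), another subunit of the NDC80 complex, stood at 20.4, 20.4, 18.0 and 19.4 FPKM. Within 1 complex, then, *Nuf2* was low in both GSK-J4 libraries and *Spc25* was level, while *Spc24*, the partner of *Spc25*, had a log2 ratio of −0.54 in both comparisons.

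Spindle motors and microtubule-associated proteins build and move the spindle. Of 6 listed genes 4 had a value, with a median log2 ratio of −0.83 without AA and −0.67 with AA. *Kif2c*, a kinesin that takes microtubules apart at centromeres, stood at 56.5, 29.0, 52.1 and 28.8 FPKM. *Hmmr*, a microtubule-binding protein of the spindle, stood at 47.8, 41.0, 41.5 and 37.8 FPKM. *Hmmr* was near the median of all genes, at log2 ratios of −0.22 and −0.13, while *Kif2c* stood at −0.94 and −0.83.

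Genes of the central spindle and cytokinesis were lower in all 5 cases, with a median log2 ratio of −0.83 without AA and −0.66 with AA. *Prc1* (mm10, chr7:80294456-80316274), which bundles antiparallel microtubules of the midzone, stood at 35.1, 15.9, 34.9 and 14.4 FPKM. It fell 2.14-fold without AA and 2.33-fold with AA. With 1 FPKM added, *Prc1* and *Plk1* were the 2 genes of the list that fell at least 2-fold in both comparisons. Of all 8972 genes with both ratios, 1.84% did. That result depends on the amount added, because *Cdk1*, *Aurka*, *Nuf2* and *Cenpa* also reached 2-fold in both comparisons with 0.1 FPKM added. With 5 FPKM added *Prc1* fell short of 2-fold without AA, at −0.94, while *Plk1* had −1.41 without AA and −1.29 with AA. Centred on the median of all genes, *Prc1* fell short without AA as well, at −0.92. *Prc1* is the sum of 2 coding sequence groups, at 23.2, 9.06, 22.3 and 10.5 FPKM and at 11.9, 6.85, 12.6 and 3.91 FPKM, both lower with GSK-J4. *Kif23*, a kinesin of the centralspindlin complex, stood at 24.9, 13.9, 20.9 and 15.2 FPKM, with a smaller reduction with AA than without. *Racgap1*, its partner in centralspindlin, which belongs to another list considered below, fell to 11.7 FPKM from 32.1 without AA and to 9.70 FPKM from 34.2 with it.

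The anaphase and APC/C genes had medians of −0.81 and −0.82. *Cdc20*, the activator of the APC/C in mitosis, stood at 157, 88.7, 142 and 79.8 FPKM, with near identical log2 ratios of −0.81 and −0.82. *Pttg1*, which encodes securin, the inhibitor of separase, stood at 21.5, 8.68, 28.6 and 15.5 FPKM. It fell 2.33-fold without AA and was 1.80-fold lower with AA, and it was higher in both libraries with AA than in their counterparts without. *Espl1* (mm10, chr15:102296229-102324357), which encodes separase, the protease that cuts cohesin, stood at 12.3, 7.31, 9.52 and 9.80 FPKM. That is a log2 ratio of −0.67 in the absence of AA and of 0.04 in its presence, the widest gap between the comparisons among the 42 genes. *Espl1* was therefore lower with GSK-J4 in 1 comparison and level in the other.

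Chromosome condensation had the highest median without AA, −0.44, and −0.56 with AA, over 5 of 7 listed genes. *Top2a*, the topoisomerase that untangles sister chromatids, stood at 182, 90.6, 148 and 100 FPKM. It fell just past the 2-fold mark without AA and was 1.47-fold lower with AA. *Smc2*, a core ATPase of condensin, stood at 23.1, 19.8, 18.7 and 17.0 FPKM, at log2 ratios of −0.21 and −0.13. Condensin subunits were thus lower by less than *Top2a* without AA, with *Ncaph* at −0.44 and *Smc4* at −0.21. *Smc4*, the partner of *Smc2* and the lowest of the 42 genes in every library, had a log2 ratio of −0.89 with AA from values of 9.14 and 4.48 FPKM.

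The responses without and with AA come from separate libraries. Across the 42 genes the log2 ratios ranked alike, with a Spearman correlation of 0.771 and a Pearson correlation of 0.780, as a description over genes of the same 4 libraries. The Spearman correlation across all genes was higher, at 0.838. Both ratios were below 0 for 40 of the genes, where 56.1% of all genes were lower in both, and 25 were at least 1.5-fold lower in both, where 13.7% of all genes were. The ratios of 34 genes lay within 0.2 of each other, and 4 differed by more than 0.4, namely *Espl1* (0.71 higher with AA), *Top2a* (0.44 higher), *Smc4* (0.68 lower) and *Nuf2* (0.54 lower). These 4 were singled out after their values were seen. With AA the ratio was less negative for 30 genes and more negative for 12, and the median difference was 0.09. Over all 8972 genes the SD of the difference was 0.327, wider than the 0.220 of the 42 genes.

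**Figure D3:**
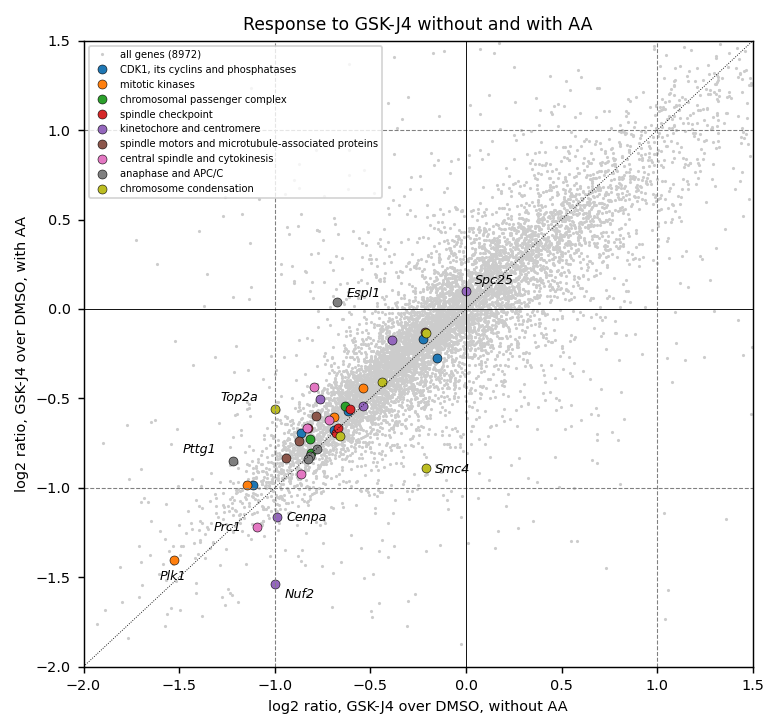
Log2 ratio of GSK-J4 over DMSO without AA (horizontal axis) and with AA (vertical axis) for all genes (grey) and the mitosis and spindle genes (coloured by role); dashed lines mark 2-fold, the dotted line marks equal ratios, and 195 other genes lie beyond the axes. The coloured points gather in the lower left quadrant, with *Plk1* at −1.53 and −1.40, and *Espl1*, *Smc4*, *Nuf2* and *Top2a* lie farthest from the dotted line.

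AA alone was followed by small differences in these genes. In DMSO their median log2 ratio of AA over PBS was −0.13, against −0.05 for all genes, with 36 lower and 6 higher, where 62.4% of all genes were lower. In GSK-J4 the median was −0.06, against −0.02, with 32 lower and 10 higher, where 55.4% of all genes were lower. None of the 42 genes changed 2-fold in either comparison, as 0.735% of all genes fell and 0.565% rose in DMSO, and 0.599% fell and 0.512% rose in GSK-J4. At 1.5-fold there were 2 exceptions, both in GSK-J4, where *Pttg1* was higher with AA at a log2 ratio of 0.77, as 1.71% of all genes were, and *Nuf2* was lower at −0.63, as 2.54% were. These comparisons cross the 2 tables and share their libraries with the GSK-J4 comparisons, so an effect of AA and a difference in scaling cannot be told apart.

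**Figure D4:**
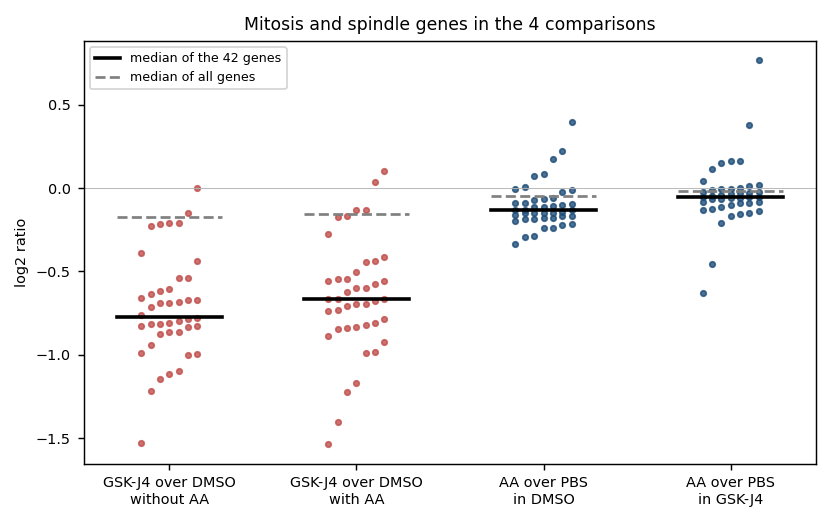
Log2 ratio of each of the 42 mitosis and spindle genes (points) in the comparisons of GSK-J4 over DMSO (red) and of AA over PBS (blue), with the median of the 42 genes (black bar) and of all genes (dashed grey bar). The red points have medians of −0.77 and −0.66, and the blue points lie close to 0 at −0.13 and −0.06, with *Pttg1* highest at 0.77.

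Many late cell cycle genes share a pair of short promoter elements, the CCAAT box bound by NF-Y and the cell cycle genes homology region (CHR) bound by the DREAM and MuvB complexes, and their promoters were therefore examined. RefSeq promoters (GRCm38.p6) were matched by symbol for 41 of the 50 listed genes, and for all 35 of these with a value the annotated start lay in the locus of the tables or within 1000 bases of it. Promoters on chromosome 18 were left out of the search, for all genes alike, and *Kif20a* and *Cdc25c* lie on that chromosome. *Smc4*, *Ccna2*, *Cdca2*, *Incenp*, *Tpx2*, *Aurkb* and *Spc24* were not matched. The CCAAT box was searched as CCAAT and the CHR as TTTGAA or TTCGAA, each on both strands, and no element is contained in another. In the 250 bases before the start, a CCAAT box was found in 31 of the 41 genes (75.6%). It was found in 37.5% of the 27025 genes of the reference outside chromosome 18 and in 40.7% of 7495 such genes of the tables. A CHR was found there in 16 (39.0%), against 19.6% and 13.2%. When the 50 bases after the start were included, a window chosen after the data were seen, the CHR was found in 32 of the 41 (78.0%), against 21.7% and 15.0%, and both elements in 28 (68.3%), against 8.61% and 6.47%.

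The elements had preferred positions. A CHR within 50 bases of the start on either side was found in 30 of the 41 genes (73.2%), against 4.12% of the genes of the tables. A CCAAT box lay between 50 and 1 bases before the start in 22 genes (53.7%), against 14.0%, and between 100 and 51 bases before it in 18 (43.9%), against 18.4%. The CHR thus gathered at the start itself and the CCAAT box mostly before it.

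**Figure D5:**
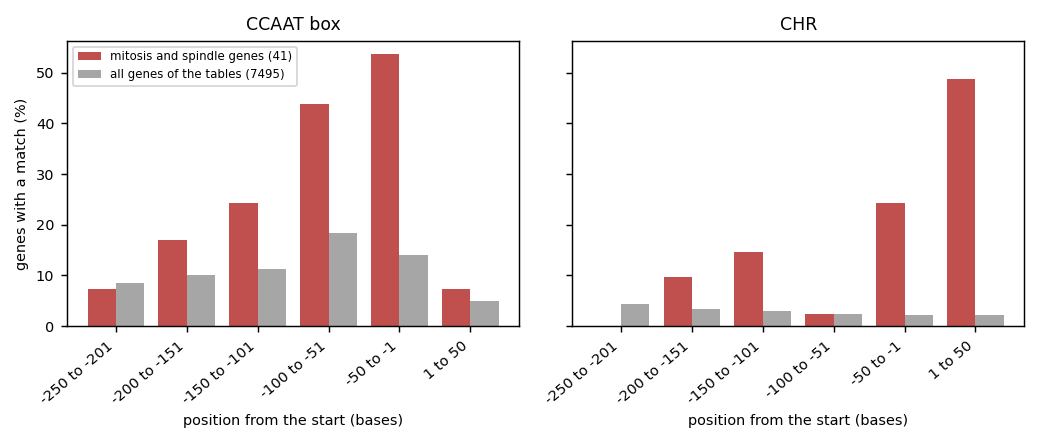
Percent of genes with a CCAAT box (left) or a CHR (right) in successive 50-base windows from the annotated start, for the 41 mitosis and spindle genes with a promoter (red) and the 7495 genes of the tables with a searched promoter (grey). The red bars of the CHR are highest in the windows next to the start, at 24.4% before it and 48.8% after it, where the grey bars are near 2.11% and 2.16%.

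The promoters of 5 genes that were lower in both comparisons are shown because they hold both elements within the printed window. Each runs from 120 bases before the start to 30 bases after it, 5′ to 3′ on the strand of the gene, and the capitals mark the CCAAT boxes and the CHRs, read on either strand. Of 2 annotated starts of *Prc1* the first is used. They lie at chr10:69352883-69353032 (minus strand) for *Cdk1*, chr4:118437314-118437463 (minus strand) for *Cdc20*, chr11:99024160-99024309 (minus strand) for *Top2a*, chr7:80294331-80294480 (plus strand) for *Prc1* and chr5:30666766-30666915 (plus strand) for *Cenpa*.
Cdk1: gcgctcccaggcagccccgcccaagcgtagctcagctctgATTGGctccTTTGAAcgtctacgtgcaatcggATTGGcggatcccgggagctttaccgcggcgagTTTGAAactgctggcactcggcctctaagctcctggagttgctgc
Cdc20: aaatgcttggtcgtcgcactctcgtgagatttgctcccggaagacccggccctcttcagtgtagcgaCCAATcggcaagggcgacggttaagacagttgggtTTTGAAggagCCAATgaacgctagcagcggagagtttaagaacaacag
Top2a: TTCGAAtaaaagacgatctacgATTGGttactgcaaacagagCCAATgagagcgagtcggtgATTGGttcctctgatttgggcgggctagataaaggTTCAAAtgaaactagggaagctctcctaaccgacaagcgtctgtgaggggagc
Prc1: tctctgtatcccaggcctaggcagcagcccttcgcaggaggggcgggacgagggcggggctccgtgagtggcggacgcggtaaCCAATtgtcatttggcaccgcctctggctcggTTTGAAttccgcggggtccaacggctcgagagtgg
Cenpa: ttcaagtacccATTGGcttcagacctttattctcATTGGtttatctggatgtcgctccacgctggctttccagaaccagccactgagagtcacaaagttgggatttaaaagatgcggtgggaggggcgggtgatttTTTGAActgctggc

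*Hmmr* and *Spc25* are shown beside them because they carried the same elements and yet were near level with GSK-J4. Their windows lie at chr11:40733408-40733557 (minus strand) and chr2:69206184-69206333 (minus strand), with the same marks.
Hmmr: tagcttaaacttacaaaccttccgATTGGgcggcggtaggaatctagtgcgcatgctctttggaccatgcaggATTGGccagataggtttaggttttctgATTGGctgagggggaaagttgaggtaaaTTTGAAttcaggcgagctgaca
Spc25: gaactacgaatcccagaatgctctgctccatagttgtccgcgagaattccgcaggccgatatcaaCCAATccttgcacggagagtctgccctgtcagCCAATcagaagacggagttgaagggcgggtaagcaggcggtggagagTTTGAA

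*Nuf2* and *Pttg1*, which fell at least 2-fold in 1 comparison each with 1 FPKM added, are shown because neither element was found in their windows or in the whole 300 bases. They lie at chr1:169531435-169531584 (minus strand) and chr11:43425952-43426101 (minus strand). For *Pttg1* the annotated start lies inside its locus in the tables, chr11:43420246-43426236, and no bases upstream of that locus were searched. Whether *Pttg1* has an element near another start was therefore not examined.
Nuf2: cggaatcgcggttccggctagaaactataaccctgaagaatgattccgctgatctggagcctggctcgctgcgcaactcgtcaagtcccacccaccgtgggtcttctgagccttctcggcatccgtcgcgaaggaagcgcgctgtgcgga
Pttg1: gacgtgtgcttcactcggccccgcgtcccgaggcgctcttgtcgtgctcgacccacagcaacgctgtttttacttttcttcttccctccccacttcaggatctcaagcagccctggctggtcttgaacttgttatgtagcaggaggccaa

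Genes with and without the elements were reduced by like amounts. The 26 genes with a value and a CHR in the 300 bases had a median log2 ratio of −0.79 without AA and −0.67 with AA, and the 9 without one, *Birc5*, *Ccnb1*, *Cenpe*, *Mad2l1*, *Ncaph*, *Nek2*, *Nuf2*, *Plk4* and *Pttg1*, had medians of −0.69 and −0.60. For the CCAAT box in the 250 bases before the start, 27 genes with it had medians of −0.78 and −0.66 and 8 without it −0.83 and −0.66. Among the genes of the tables with a searched promoter, the 1055 with a CHR in the 300 bases had a median log2 ratio of −0.21 without AA. This was close to the −0.17 of the 6007 without one. A match, or its absence, is a description of the letters around the annotated start only, and no binding was measured.

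Related cell cycle genes were taken from lists of textbook members. The list of DNA replication and G1/S genes, which prepare and copy the genome, was lower as a whole, with 46 of 46 genes lower without AA and 45 of 46 with AA. Of all genes 63.0% and 62.2% were lower, and of those with a mean of at least 20 FPKM 85.3% and 84.5% were. The medians were −0.54 and −0.53, against −0.17 and −0.16 for all genes. The distance was smaller among genes with at least 20 FPKM in either library, where the list had −0.58 and −0.56 against −0.46 and −0.42. Of the 46 genes, 4 fell at least 2-fold without AA and 5 with AA, where 3.50% and 3.38% of all genes did, and none rose 2-fold. *Ccne1*, which encodes cyclin E1, stood at 139, 59.3, 134 and 55.7 FPKM and so fell in both comparisons. *Ccnd3*, cyclin D3, at 200.1, 92.9, 227 and 96.1 FPKM, and *Tk1*, thymidine kinase, at 62.5, 30.3, 63.9 and 28.6 FPKM, fell in both as well, with the libraries in the order used above. Lower values were thus not particular to mitosis, although the medians of the mitosis and spindle genes were lower than those of this list.

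Other parts of the mitotic machinery stood closer to all genes. The 31 genes of centrosome and spindle assembly measured without AA had a median log2 ratio of −0.17, equal to that of all genes to 2 decimals. Of them 21 were lower and 10 higher, where 63.0% of all genes were lower. The 32 measured with AA had −0.13, with 20 lower and 12 higher, where 62.2% of all genes were lower. *Racgap1* was the gene of this list that fell at least 2-fold in both comparisons, at log2 ratios of −1.38 and −1.72. Another 24 kinetochore and centromere proteins had medians of −0.26 and −0.18, and 14 genes of cohesin, which holds sister chromatids together, and its regulators had −0.28 and −0.17. The 15 APC/C subunits and partners had −0.47 and −0.52, and the 2 measured condensin II genes had −0.26 and −0.07. Of 6 tubulins, the building blocks of microtubules, 5 were lower in each comparison, where 63.0% and 62.2% of all genes were. Their medians were −0.77 and −0.84, and *Tubb2b* fell in both comparisons, with 28.7, 12.1, 27.2 and 11.3 FPKM. The mitosis and spindle genes and the tubulins thus had the lowest medians of these lists. Among genes with at least 20 FPKM in either library, all genes had −0.46 and −0.42. There centrosome and spindle assembly had −0.31 and −0.17, and the other kinetochore and centromere proteins −0.28 and −0.38, both above all genes. Cohesin and its regulators had −0.49 and −0.25, and the APC/C subunits and partners −0.60 and −0.50.

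Regulators of these genes moved in both directions. The 20 G2/M transcription regulators had medians of −0.44 and −0.37, with 16 and 17 lower and 4 and 3 higher, where 63.0% and 62.2% of all genes were lower. *Mybl2*, which encodes the B-Myb factor that activates late cell cycle genes, stood at 89.3, 56.4, 87.8 and 61.5 FPKM. *Foxm1*, the forkhead factor that acts with B-Myb on mitotic genes, stood at 15.6, 12.7, 10.4 and 13.1 FPKM, at log2 ratios of −0.28 and 0.31. *Rb1*, which encodes the retinoblastoma protein that restrains E2F factors, stood at 10.4, 33.3, 8.25 and 28.1 FPKM and rose in both comparisons. *Mybl2* was thus lower and *Rb1* higher in both GSK-J4 libraries, and *Foxm1* had no common direction. Other members of the list did not follow *Rb1*. In the absence and presence of AA, *E2f8* had log2 ratios of −0.98 and −1.20, *Rbl1* −0.45 and −0.26, and *E2f7* −0.06 and −0.13. The 15 brakes on CDK activity had medians of −0.04 and 0.08, and of these *Cdkn1a*, the p21 inhibitor, rose in both comparisons at a log2 ratio of 1.67.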

How the data were processed

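Expression values were deposited by the authors as FPKM, in 1 table without AA and 1 with AA. Per the labels and methods, single-end reads were stripped of duplicates and aligned to mm10 with TopHat2, and Cufflinks2, CummeRbund and Genome Explorer were run through Maser, with versions not given in the sources used here. Where duplicates are removed, abundant RNAs can come out too low. The columns are headed as log10 but hold linear FPKM. The tables also hold the authors' own fold changes, test statistics, p-values and q-values, which were not used. FPKM was summed per gene over coding sequence groups (4 of the mitosis and spindle genes had more than 1), and the 157 genes with a failed estimate were left out. Ratios are log2((treated + 1)/(control + 1)) for genes that reach 1 FPKM in 1 of the libraries compared, and a change is 2-fold or more. Each condition had 1 library and so no test was made.

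Named genes were the highest and lowest of each role by mean log2 ratio to GSK-J4, each gene changed 2-fold in either GSK-J4 comparison, 9 main regulators, the genes of each list changed 2-fold in both (at most 3), and *Mybl2*, *Foxm1* and *Cdkn1a*. Others were named after their values were seen. The genes and lists were chosen with earlier results of these data known. In GENCODE M21, exons of *Cdc20*, *Cdc25b*, *Cdc25c*, *Cdca8*, *Kif20a*, *Prc1* and *Ube2c* overlap a protein-coding gene on the opposite strand; whether counting used strand is not given in the sources used here, so reads of the pairs cannot be told apart. *Ccnb1* and *Ccnb2* have pseudogenes (*Ccnb1-ps*, *Ccnb2-ps*) that can share reads with them. The scripts (Python 3.11.15, numpy 2.4.6, pandas 2.3.3, matplotlib 3.10.9) were tested on simulated data. Alternatives changed the pseudocount, the filter, the scaling, the threshold, the handling of failed estimates and of coding sequence groups, and the promoter window.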

Additional observations from a re-analysis of the deposited data

Results flagged for a closer look

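*Espl1*, the gene of separase, had log2 ratios of GSK-J4 over DMSO of unlike sign, −0.67 without AA and a near level 0.04 with AA, a difference of 0.71. The ratios of *Foxm1* also differed in sign, at −0.28 without AA and 0.31 with AA, a difference of 0.59. The median of the 15 brakes on CDK activity was −0.04 without AA and 0.08 with AA, a difference of 0.11. Each rests on 1 library per condition, and the differences were not tested.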

How the results depend on the processing

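As reported, 6 mitosis and spindle genes fell at least 2-fold with GSK-J4 without AA and 4 with AA. The count with AA was 7 with a pseudocount of 0.1, and that without AA was 3 with a pseudocount of 5 and 2 when ratios were centred on the median of all genes. Divided by the upper quartile, the medians were −0.50 without AA and −0.42 with AA and the counts 1 and 2, and scaled to the same total they were −0.40 and −0.35 and the counts 1 and 2. A 1.5-fold threshold gave 32 and 26 genes, and 1 lower and 1 higher gene for AA over PBS in GSK-J4. Of the alternatives chosen after seeing the data, a mean of at least 20 FPKM gave 2 genes with AA from fewer genes, and the window of 300 bases gave 32 genes with a CHR. The main values without and with AA kept their direction under every alternative run. Another 161 of the alternative values for these results lay within the limits set for calling them unchanged, and 17 did not. No paired analysis was possible because each condition had 1 library and no test was made. Without replicates and counts, neither the spread between cultures nor the counting error of low genes such as *Smc4* is known.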
